A study of Mus musculus with 8 samples.

Results

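The 10 genes described here are the coactivator genes Yap1 and Wwtr1, the DNA-binding partners Tead1, Tead2, Tead3 and Tead4, and the target genes Cyr61, Ctgf, Ankrd1 and Amotl2. They were named as members of the pathway, with earlier results of these data known, out of 54837 Ensembl genes in a table of read counts. Cyr61 and Ctgf stand in the GENCODE annotation under their newer names Ccn1 and Ccn2. RNA was sequenced from basal cells of the mammary gland of untreated C57BL/B6 mice, sorted into G1, the growth phase before DNA synthesis, and G0, in which cells rest outside the cycle. Each of 4 runs gave 1 G1 and 1 G0 library. The labels give no genetic change, no age, no pooling of animals and no marker used to sort the phases. Whether each run came from its own animals is not stated, and p-values therefore describe the spread of these libraries, part of which may be technical.

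YAP, encoded by Yap1, and TAZ, encoded by Wwtr1, carry no DNA-binding domain of their own and act by binding TEAD transcription factors. The Hippo kinases LATS1 and LATS2 phosphorylate both proteins and keep them out of the nucleus, and a stiff matrix or cell spreading lets them in. Cyr61, Ctgf and Ankrd1 are among the genes most often read as a sign of YAP/TAZ activity. Because this control acts largely on protein location, the mRNA of Yap1 and Wwtr1 does not measure it. Basal cells contact the basement membrane and include the contractile myoepithelial cells.

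TEAD proteins bind the bases GGAATG, which read CATTCC on the opposite strand. The sequences below show where these letters stand in the 250 bases before the RefSeq starts of the genes (GRCm38.p6), read 5′ to 3′ on the gene's strand, with the letters in capitals. The RefSeq table held 7 of the 10 genes; Tead1, Tead4 and Ctgf had no entry. The whole 250 bases are shown for Cyr61, the target that had G1 above G0 in each run, at chr3:145649986-145650235 on the minus strand.
Cyr61: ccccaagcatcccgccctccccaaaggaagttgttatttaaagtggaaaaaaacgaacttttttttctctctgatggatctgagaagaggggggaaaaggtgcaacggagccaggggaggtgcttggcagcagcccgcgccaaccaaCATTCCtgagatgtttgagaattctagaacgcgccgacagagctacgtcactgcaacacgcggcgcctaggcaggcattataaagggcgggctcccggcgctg

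For the other genes, 30 bases around the letters are shown so that targets and coactivators can be set side by side. Ankrd1 held them 2 times, ending 205 and 118 bases before its start, at chr19:36120037-36120066 and chr19:36119950-36119979 on the minus strand. In Amotl2 they ended 60 bases before the start, at chr9:102717727-102717756 on the plus strand. Yap1 (chr9:8004720-8004749) and Wwtr1 (chr3:57576029-57576058), both on the minus strand, held them ending 136 and 131 bases before their starts. Tead3 held them before its outermost start, ending 177 bases upstream at chr17:28350970-28350999 on the minus strand. Before its next start Tead3 held them 2 times within exons, ending 118 and 109 bases upstream (not shown). Before its innermost start it did not hold them.
Ankrd1, farther: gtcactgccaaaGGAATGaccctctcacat
Ankrd1, nearer: gacactaagtctGGAATGaaaattcacctg
Amotl2: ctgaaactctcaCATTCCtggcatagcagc
Yap1: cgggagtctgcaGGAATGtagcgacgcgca
Wwtr1: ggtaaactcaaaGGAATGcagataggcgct
Tead3: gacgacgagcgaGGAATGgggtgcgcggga

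Of the 7 genes in the RefSeq table, 6 held the letters on either strand before at least 1 start, and Tead2 did not. Among all 27025 genes of that table the share was 14.4%. The sites of Ankrd1 and Amotl2 lie within exons of the same genes in GENCODE, whose outermost starts are farther upstream than the RefSeq starts used here. A match of these letters is a description of the sequence and not evidence of binding.

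Total counts per library ran from 5868728 in the G0 library of run 4 to 15014104 in the G0 library of run 3. The G1 library of run 4 had the next lowest total, 6807090. The basal genes Krt5, Krt14 and Trp63 were present at averages of 1857, 8270 and 112 CPM in G1 and 1829, 7999 and 112 CPM in G0 (CPM, read counts relative to the library's total, scaled by TMM factors). Of 7 basal markers, which also include Krt17 and the contractile genes Acta2, Myh11 and Oxtr, 6 leaned higher in G1. In the fit with the run as a term 1 of them, Acta2, was called higher, and 0 with the phase alone. The basal markers summed to 28610 to 32640 CPM in G1 libraries and 20840 to 27570 CPM in G0 libraries. The contractile gene Acta2 alone averaged 12210 CPM in G1 and 7926 CPM in G0, so these sums do not measure the share of basal cells. The G0 library of run 4 stood apart: 39094 genes had a count there, and 20836 to 26614 in each of the remaining libraries. Markers of blood vessel endothelium were lower in G1: 12 of 14 were called lower in the fit with the run as a term (7 without run 2, 8 without run 4, and 0 with the phase alone), and their summed level was 42.9 to 168 CPM in G1 libraries and 209 to 367 CPM in G0 libraries. Their part in the values of the 10 genes was not tested. In bulk RNA, fewer cells of a type and less RNA per cell cannot be told apart.

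None of the 10 genes passed the test for a difference between G1 and G0, and all 10 passed the filter on low counts. With the phase alone in the model, 0 of 10 were called at an adjusted p of 0.05 (edgeR's quasi-likelihood test, Benjamini-Hochberg over 15192 genes), where 0% of all tested genes were called; 425 of all genes (2.8%) and 0 of the 10 had an unadjusted p under 0.05. With the run as a replicate block, which compares the phases within each run, 0 of 10 were called, against 1.24% of all tested genes (73 or 0.481% higher and 116 or 0.764% lower). In that fit 1 of the 10, Cyr61, had an unadjusted p under 0.05, against 12.3% of all tested genes. The ranges of the phases did not overlap for 0 of the 10, against 2% of all tested genes. DESeq2 and limma-voom also called 0 of the 10 in either model. The median log2 fold change of the 10 was 0.07 in the blocked fit, beside 0.01 over all tested genes. The fold changes that follow are on the log2 scale, G1 over G0, with their standard error and adjusted p; they come from the blocked fit where no other is given. Per-run differences are on the log2 CPM scale.

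**Figure D1:**
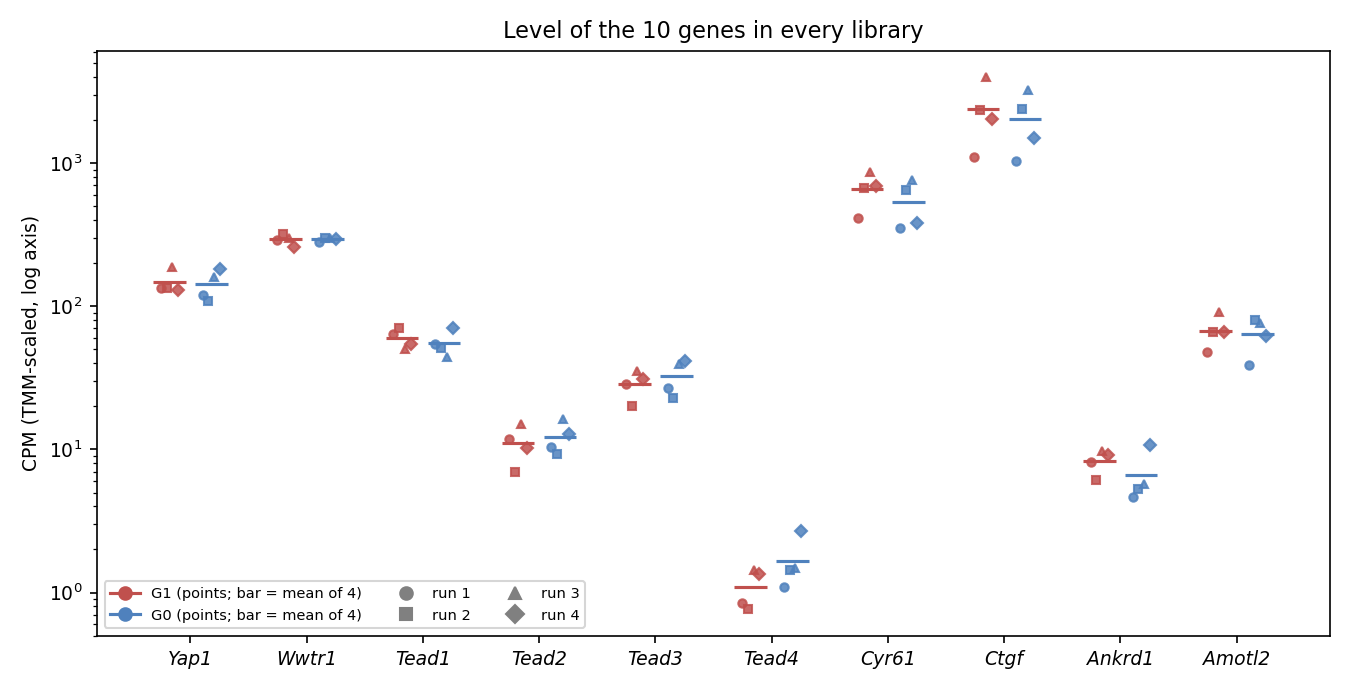
Each point is 1 library, with its level in TMM-scaled CPM on a log axis; symbols mark the run, colours the phase, and bars the mean of 4 libraries. For every gene the G1 and G0 points overlap, and the 10 genes span 0.767 CPM (Tead4, G1 run 2) to 3975 CPM (Ctgf, G1 run 3).

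The 10 genes were ordered by level per length of the longest transcript, in CPM per kilobase. Ctgf stood highest, at 953 ± 479 in G1 and 818 ± 392 in G0 (SD, n = 4 each), and Cyr61 next, at 327 ± 92.8 in G1 and 266 ± 98.8 in G0. Wwtr1 followed at 62.4 ± 5.46 in G1 and 62.6 ± 1.82 in G0, then Yap1 at 27.8 ± 5.37 in G1 and 26.9 ± 6.42 in G0. Amotl2 stood at 15.3 ± 3.95 in G1 and 14.6 ± 4.22 in G0. Tead3, Tead1, Ankrd1 and Tead2 lay between 2.05 and 11.99 CPM per kilobase in every library. Tead4 was lowest, at 0.357 ± 0.110 in G1 and 0.543 ± 0.226 in G0.

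Some neighbours in this order could not be separated. Ankrd1 stood above Tead2 in 5 of 8 libraries, and Tead3 above Tead1 in 7 of 8. The other neighbouring pairs kept their order in 8 of 8 libraries, with ranges over libraries that overlapped for Ctgf and Cyr61, Amotl2 and Tead3, and Tead1 and Ankrd1. Divided by the union of exons, the rank of each gene's mean over all 8 libraries was the same, but in G1 alone Tead1, at 4.41, stood above Tead3, at 4.27, and Tead1 exceeded Tead3 in 4 of 8 libraries.

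Wwtr1, encoding TAZ, was the steadiest of the 10 genes. It had 292, 322, 298 and 260 CPM in the G1 libraries of runs 1 to 4, and 282, 302, 298 and 294 CPM in the G0 libraries. Neither phase was the higher one throughout, and the 8 values lay close together. Its standard deviation over the 8 libraries was 0.0885 on the log2 scale, and 0.2% of all tested genes had a smaller one. The log2 fold change was -0.01 ± 0.11 (adjusted p = 0.988), with a 95% interval from -0.23 to 0.21. Wwtr1 (ENSMUSG00000027803) spans 57455649 to 57575910 of chromosome 3, minus strand (GRCm38).

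Yap1 varied more and split by run. The G1 libraries of runs 1 to 4 had 135, 133, 189 and 129 CPM, and the G0 libraries 119, 109, 160 and 181 CPM. G1 was higher in runs 1 to 3, by 0.18, 0.29 and 0.24 on the log2 scale, and lower in run 4, by -0.49. The fold change was 0.06 ± 0.13 (adjusted p = 0.898, 95% interval -0.20 to 0.32). Without run 4 it was 0.23 ± 0.11 (adjusted p = 0.661), and without run 2 -0.01 ± 0.14 (adjusted p = 0.987). Yap1 (ENSMUSG00000053110) spans 7931999 to 8004596 of chromosome 9, minus strand. Per kilobase, TAZ mRNA made up 69.3% ± 3.88 of the sum of both coactivators in G1 and 70.2% ± 4.97 in G0 (SD, n = 4 each).

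The TEAD genes encode the DNA-binding part of the complex, and in these libraries Tead3 and Tead1 mRNA made up most of it. Per kilobase, Tead3 gave 46.0% ± 5.79 of the summed TEAD level in G1 and 49.0% ± 4.25 in G0 (SD, n = 4 each). Tead1 gave 34.2% ± 9.17 in G1 and 29.4% ± 6.05 in G0. The share of Tead1 was higher in G1 in 4 of 4 runs, by 1.89, 12.4, 4.29 and 0.542 percentage points, and that of Tead3 lower in 4 of 4. Both had p = 0.125 in a two-sided exact permutation test within runs, the smallest that 4 pairs allow, and 0.25 adjusted over the 4 shares, which are not independent. With exon-union lengths the order turned in G1: Tead1 gave 39.7% ± 9.77 and Tead3 37.5% ± 5.43 there, against 34.5% ± 6.64 and 40.3% ± 4.15 in G0. The order of Tead3 and Tead1 therefore rests on the length used. Before division by length Tead1 averaged 59.8 CPM in G1 and 55.1 in G0, above Tead3 at 28.7 and 32.7. Tead2 gave 17.9% ± 3.60 in G1 and 18.8% ± 2.86 in G0, and Tead4 gave 1.97% ± 0.473 in G1 and 2.79% ± 0.733 in G0. Their summed level was 17.95 ± 2.06 CPM per kilobase in G1 and 19.2 ± 4.02 in G0.

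**Figure D2:**
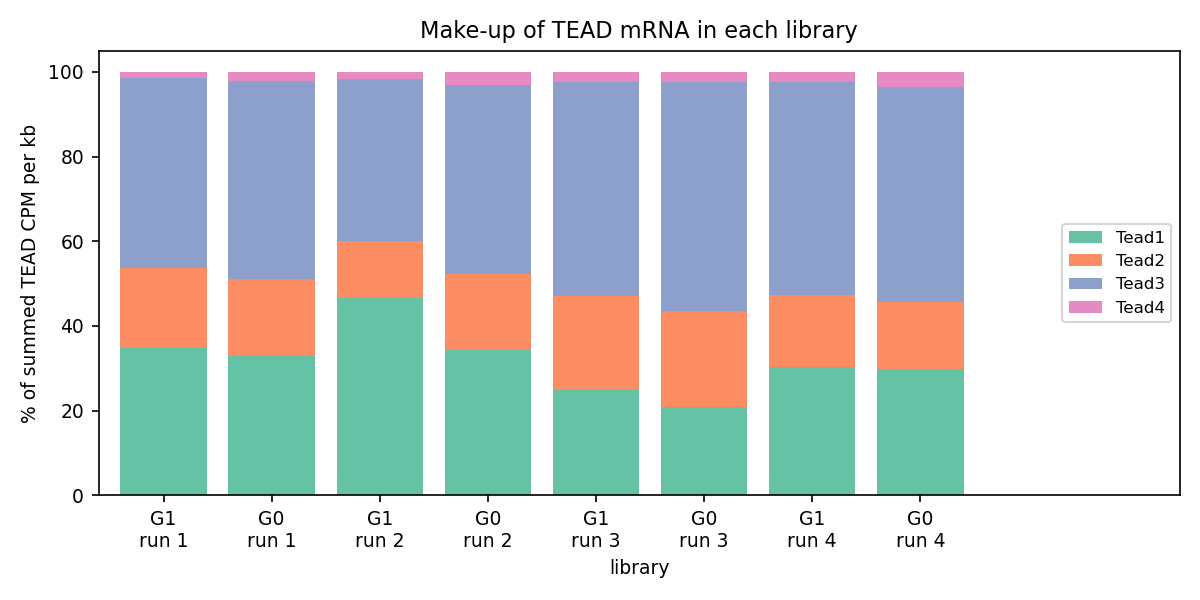
Each bar is 1 library, split into the share of each TEAD gene in the summed TEAD level (CPM per kilobase of the longest transcript, in percent). Tead3 takes 38.2% to 54.2% and Tead1 20.8% to 46.6%, with the highest Tead1 share in the G1 library of run 2.

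Of the TEAD genes, Tead1 had the same signs by run as Yap1. It had 64.2, 70.6, 50.3 and 54.2 CPM in the G1 libraries of runs 1 to 4, against 54.9, 51.0, 44.0 and 70.4 CPM in G0. Within runs it was higher in G1 by 0.23, 0.47 and 0.20 in runs 1 to 3 and lower, by -0.38, in run 4. The fold change was 0.14 ± 0.14 (adjusted p = 0.763, 95% interval -0.15 to 0.42), 0.29 ± 0.14 without run 4 (adjusted p = 0.628) and 0.03 ± 0.15 without run 2 (adjusted p = 0.967).

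Tead2, Tead3 and Tead4 had negative fold changes that did not pass. Tead3 was lower in G1 in 3 of 4 runs, at 28.7 ± 6.36 CPM in G1 and 32.7 ± 9.11 CPM in G0, with a fold change of -0.17 ± 0.15 (adjusted p = 0.704). Tead2 was also lower in 3 of 4 runs, at 11.1 ± 3.39 CPM in G1 and 12.2 ± 3.18 CPM in G0, with -0.15 ± 0.20 (adjusted p = 0.831). Tead4 had 12, 10, 14 and 9 reads in the G1 libraries of runs 1 to 4 and 12, 16, 21 and 15 reads in G0. Scaled to depth it was lower in G1 in 4 of 4 runs, by -0.30, -0.76, -0.05 and -0.90, yet the fold change of -0.56 ± 0.51 (adjusted p = 0.725) had a 95% interval from -1.60 to 0.49. That interval holds a 2-fold lower level as well as no difference.

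Reads could in principle be split between TEAD paralogs. Of the 45 pairs among the 10 genes, 1 shared any stretch of 50 identical bases in its annotated transcripts, Tead3 and Tead4. They shared 20 sequences of 50 bases. These were counted from every position and on both strands, so they can overlap and are not 20 separate regions. The treatment of reads that map to several places is not stated.

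The 4 target genes had positive fold changes, none of which passed, with a median of 0.27. Cyr61, a secreted matrix protein that binds integrins, came nearest. It had 411, 665, 864 and 698 CPM in the G1 libraries of runs 1 to 4, and 355, 647, 762 and 384 CPM in G0. G1 was the higher phase in 4 of 4 runs, by 0.21, 0.04, 0.18 and 0.86, though the ranges of the 2 phases overlap. The fold change was 0.32 ± 0.12 with an adjusted p of 0.240 in edgeR's blocked fit and 0.30 ± 0.29 with an adjusted p of 0.9999 with the phase alone. Run 4 carried much of it, and without that run the fold change was 0.14 ± 0.10 (adjusted p = 0.830). Cyr61 (ENSMUSG00000028195) spans 145646976 to 145649981 of chromosome 3, minus strand.

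Of the 10 genes, Cyr61 and Tead4 kept 1 sign in all 4 runs, 1 in each direction. Among all tested genes 20.8% did so, 11.3% with G1 higher and 9.46% with G1 lower. The count of 2 of 10 is near that background.

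Ctgf, the connective tissue growth factor gene and the most abundant of the 10, followed the run more closely than the phase. The G1 libraries of runs 1 to 4 had 1108, 2364, 3975 and 2043 CPM, and the G0 libraries 1027, 2395, 3229 and 1495 CPM. Run 1 was lowest and run 3 highest in both phases, and the mean of run 3 was 3.37 times that of run 1. G1 was higher by 0.11, 0.30 and 0.45 in runs 1, 3 and 4 and lower by -0.02 in run 2. The fold change was 0.21 ± 0.10 (adjusted p = 0.410, 95% interval -0.001 to 0.42) in the blocked fit, and 0.12 ± 0.10 without run 4 (adjusted p = 0.849). With the phase alone the interval was wider, from -0.69 to 1.14, around 0.22 ± 0.41 (adjusted p = 0.9999). Ctgf (ENSMUSG00000019997) spans 24595442 to 24598683 of chromosome 10, plus strand.

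An antisense gene, Gm15270, overlaps 665 exon bases of Ctgf on the opposite strand. It was listed at 208, 798, 1699 and 734 CPM in the G1 libraries of runs 1 to 4, and at 205, 1076, 1411 and 513 CPM in G0. Its count was 18.7% and 19.9% of that of Ctgf in the G1 and G0 libraries of run 1, and 33.7% to 44.9% in the other 6 libraries. The labels do not say whether counting used the strand, so reads of Gm15270 and of Ctgf cannot be told apart here. Yap1 shares 116 exon bases with Gm20416, at a mean of 14.8 CPM, and Tead2 shares 13 with Cd37, at 0.876 CPM.

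Ankrd1, which encodes an ankyrin repeat protein of heart and stretched muscle, was expressed at a low level. It had 8.22, 6.13, 9.70 and 9.11 CPM in the G1 libraries of runs 1 to 4 and 4.63, 5.28, 5.72 and 10.7 CPM in G0. G1 was higher in runs 1 to 3, by 0.80, 0.21 and 0.74, and lower in run 4, by -0.23, where the G0 library had the highest value of the 8. The fold change was 0.40 ± 0.25 (adjusted p = 0.547, 95% interval -0.10 to 0.91), 0.60 ± 0.27 without run 4 (adjusted p = 0.613) and 0.26 ± 0.31 without run 1 (adjusted p = 0.821). These values rest on 51 to 116 reads per library.

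Amotl2, a relative of angiomotin whose protein binds YAP in the cytoplasm, had 47.8, 66.2, 90.5 and 65.7 CPM in the G1 libraries of runs 1 to 4. The G0 libraries had 38.9, 80.1, 76.4 and 62.2 CPM. G1 was higher in 3 of 4 runs and lower in run 2, with a fold change of 0.09 ± 0.13 (adjusted p = 0.856, 95% interval -0.18 to 0.35). Without run 2 it was 0.21 ± 0.14 (adjusted p = 0.583), and without run 1 0.02 ± 0.17 (adjusted p = 0.983).

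**Figure D3:**
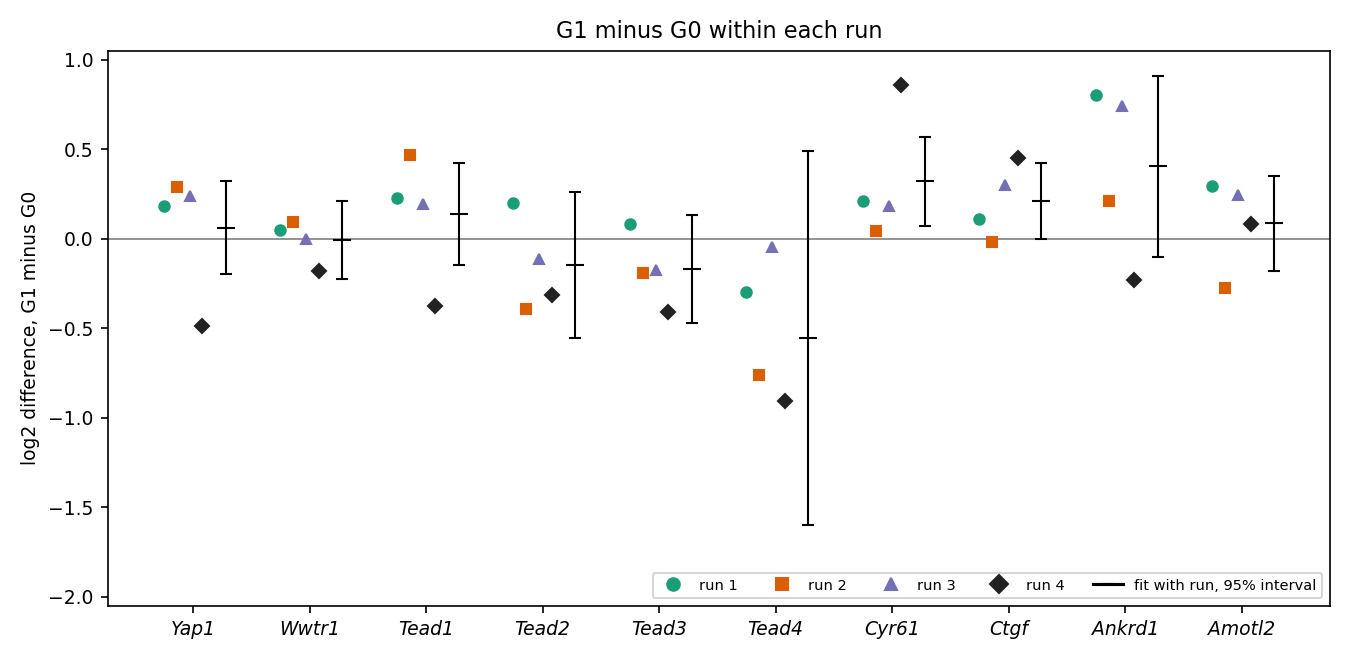
Circles, squares, triangles and diamonds give G1 minus G0 in log2 CPM for runs 1 to 4, and the horizontal ticks with bars the fold change of the fit with the run as a term, with its 95% interval. The diamonds of run 4 lie below 0 for Yap1, Wwtr1, the 4 TEAD genes and Ankrd1, and above 0 for Cyr61, Ctgf and Amotl2.

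Run 4 differed in sign from the other runs for several of the 10 genes. Yap1, Tead1 and Ankrd1 were higher in G1 in runs 1 to 3 and lower in run 4. Wwtr1 was lower in run 4, by -0.18, after 0.05 and 0.09 in runs 1 and 2 and equal levels in run 3. Cyr61 and Ctgf had in run 4 their largest positive difference. Other runs were the odd one for other members. Tead2 and Tead3 were higher in G1 in run 1 alone, by 0.20 and 0.08. Ctgf and Amotl2 were lower in G1 in run 2 alone, by -0.02 and -0.27. The share of all tested genes in which 1 run differs in sign was not computed. The G0 library of run 4, 1 of the 2 libraries behind these differences, is the one in which 39094 genes had a count; its part in the signs was not tested.

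The variance of log2 CPM over the 8 libraries was split into run, phase and the rest. For Ctgf the run held 95.5% of it and the phase 2.60%. The run share was 89.8% for Amotl2, 87.1% for Tead3, 85.7% for Tead2 and 76.1% for Cyr61, beside a median of 68.1% over all tested genes. It was below that median for Yap1 (63.6%), Wwtr1 (61.0%), Tead4 (55.8%) and Ankrd1 (52.5%), and lowest for Tead1, at 46.7%. The phase held 30.1% for Tead4, 21.4% for Ankrd1 and 12.2% for Cyr61, with 0.32% to 7.81% for the other genes and a median of 5.84% over all tested genes.

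Cyr61, Ctgf and Amotl2 were each lowest in run 1 and highest in run 3 when the libraries of a run were averaged. The highest run stood above the lowest by 2.13 times for Cyr61 and 1.92 times for Amotl2. Ankrd1, the other target, was lowest in run 2 and highest in run 4. Yap1, Tead2 and Tead3 were each lowest in run 2 and highest in run 3, and Wwtr1 spanned 1.13 times between its lowest and highest run. The share of all tested genes with these run orders was not computed. Summed fibroblast markers were also lowest in run 1 (243 CPM in G1, 208 in G0) and highest in run 3 (609 and 904). Summed immediate early genes were highest in run 3 (10740 and 12730), where summed basal markers were lowest (28610 and 20840). The part of other cells in these run orders was not tested.

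**Figure D4:**
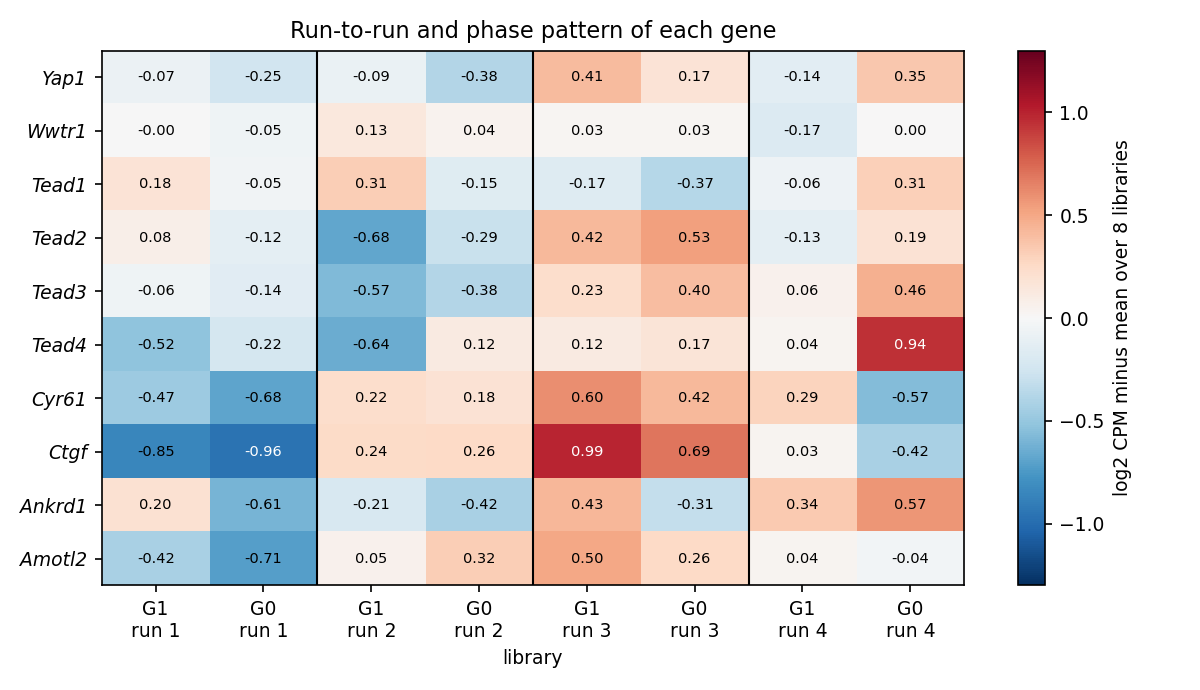
Each cell gives a gene's log2 CPM in 1 library minus its mean over the 8 libraries, with libraries ordered by run and G1 left of G0. Ctgf runs from -0.96 in the G0 library of run 1 to 0.99 in the G1 library of run 3, while the values of Wwtr1 run from -0.175 to 0.135.

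Genes of like pattern were found by the root mean square difference of log2 CPM over the 8 libraries, each gene centred on its mean, among 9374 genes. Closest to Cyr61 were Shc4, at 0.118, and Artn, at 0.137. Closest to Ctgf were Tuba1b, at 0.174, and Oser1, at 0.198. Amotl2 was nearest to Txnrd2 and Zfp932, Ankrd1 to Anpep and Ntrk3, Yap1 to Zfp236 and Tbc1d2, and Wwtr1 to Golga4 and Derl1, at 0.0608 to 0.160. The TEAD genes 1 to 4 were nearest to Ppp1r12a and Kdm4c, Acin1 and Kat6a, Fosl2 and Myo19, and Elmsan1 and Nav1, at 0.0897 to 0.176. Within the 10 genes, the closest pairs were Tead2 and Tead3, 0.159 apart, Yap1 and Tead3, at 0.219, Wwtr1 and Tead1, at 0.224, Cyr61 and Amotl2, at 0.233, and Cyr61 and Ctgf, at 0.261. Other genes lay closer in each case. Nearer to Tead2 than Tead3 stood 6 genes, nearer to Yap1 than Tead3 377, and nearer to Wwtr1 than Tead1 2331. For Cyr61, 35 stood nearer than Amotl2 did, and 75 nearer than Ctgf. Counted from the other gene of each of these pairs, in the same order, 21, 123, 813, 128 and 21 genes stood nearer.

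The other genes of the pathway were read from lists. Of 20 Hippo kinases and their upstream or LATS-binding proteins, 0 were called in either direction. Of the 20, 8 leaned higher in G1, and the list's median was -0.01. The smallest unadjusted p values belonged to the giant cadherins Fat4, at -0.58 ± 0.26 (adjusted p = 0.348), and Dchs1, at -0.42 ± 0.18 (adjusted p = 0.348). Without run 4 their fold changes were -0.24 ± 0.25 and -0.21 ± 0.18. The kinase genes Lats1 and Lats2 had -0.33 ± 0.16 (adjusted p = 0.389) and -0.003 ± 0.19 (adjusted p = 0.997).

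Of 7 genes for partners of YAP or of the TEADs, 5 could be tested and 0 were called. Vgll3, a TEAD cofactor, averaged 13.4 ± 1.23 CPM in G1 and 9.27 ± 1.27 CPM in G0 (SD, n = 4 each), higher in 4 of 4 runs, with 0.53 ± 0.20 (adjusted p = 0.238). Amot, encoding angiomotin, had -0.37 ± 0.35 (adjusted p = 0.729). Vgll1 and Vgll2 were too low to test.

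A further 18 target genes came from a published list of YAP/TAZ targets in tumours, of which 17 were tested and 0 called. Of these, 6 leaned higher in G1, and the median was -0.02. Nt5e, the ectonucleotidase CD73, averaged 62.0 ± 15.4 CPM in G1 and 43.6 ± 9.15 CPM in G0, higher in 4 of 4 runs, at 0.49 ± 0.14 (adjusted p = 0.0891). Leaving out run 3 brought its adjusted p to 0.0456, and leaving out run 4 to 0.553. Ccdc80, a secreted matrix protein, averaged 2.95 ± 1.11 CPM in G1 and 6.03 ± 3.42 CPM in G0, at -1.02 ± 0.32 (adjusted p = 0.138). Fibroblast markers were mixed. Of 8, 4 (Lum, Col1a1, Col1a2 and Pi16) were called lower in the blocked fit, with a list median of -0.90, while the most abundant, Dcn, averaged 255 CPM in G1 and 178 CPM in G0, at 0.58 ± 0.16 (adjusted p = 0.0973). Their summed level in runs 1 to 4 was 243, 320, 609 and 445 CPM in G1 and 208, 300, 904 and 308 CPM in G0, higher in G1 except in run 3. Their part in Ccdc80 was not tested.

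Of the 4 other CCN genes, relatives of Cyr61 and Ctgf, 2 could be tested and 0 were called. Wisp1 had 0.52 ± 0.15 (adjusted p = 0.107) and Wisp2 0.49 ± 0.20 (adjusted p = 0.292), each higher in G1 in 4 of 4 runs. Nov and Wisp3 averaged under 1 CPM in both phases.

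Immediate early and contractile genes were read beside the targets. Cyr61 is itself an early response gene, and of 18 immediate early genes 2 were called lower and 0 higher in the blocked fit, with a median of -0.27 and 0 positive. The called genes were Egr1, at -0.47 ± 0.10 (adjusted p = 0.0162), and Klf2, at -0.81 ± 0.19 (adjusted p = 0.0285), both for zinc finger transcription factors. Of 10 contractile genes of myoepithelial cells 7 were called higher, Acta2, Actg2, Cnn1, Tagln, Myl9, Tpm1 and Tpm2, with a list median of 0.48. Without run 4, 4 of the contractile genes were called. Leaving out run 1 put Egr1 above the threshold, at an adjusted p of 0.0712, and leaving out run 2 or run 4 did so for Klf2, at 0.154 and 0.186. With the phase alone, 0 genes of either list were called. Summed contractile levels were 27560 to 32680 CPM in G1 and 16820 to 21580 CPM in G0.

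**Figure D5:**
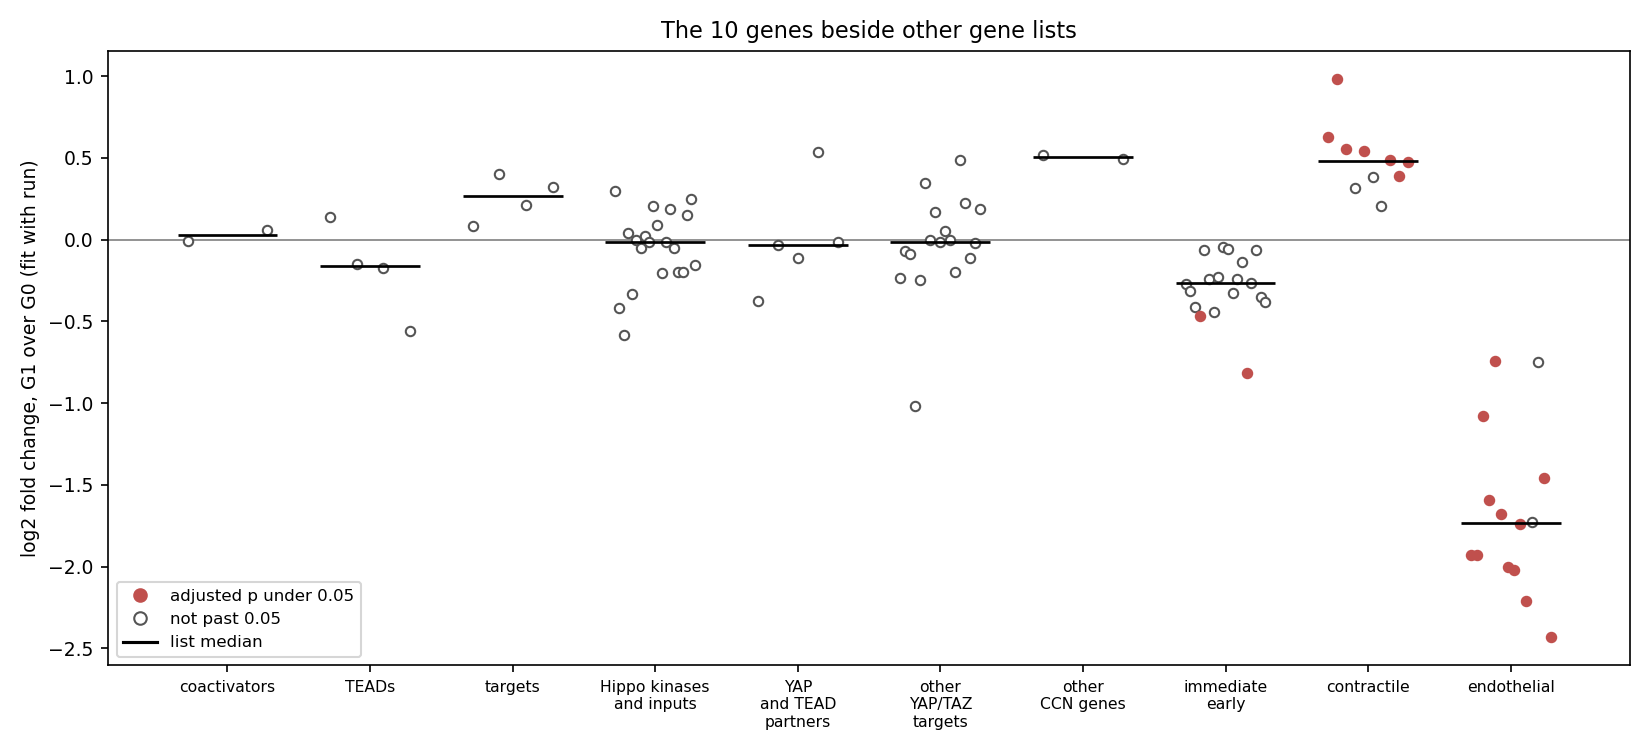
Each point is 1 tested gene, with its log2 fold change of G1 over G0 from the fit with the run as a term; filled points passed an adjusted p of 0.05 and lines mark list medians. The coactivators, TEADs, targets and pathway lists hold no filled point, while 7 contractile genes above 0, and 2 immediate early and 12 endothelial genes below 0, are filled.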

How the data were processed

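The authors deposited 1 table of unnormalized whole-number counts of reads for Ensembl genes, with a column for each library; 0 columns were left unused. Per the labels' protocols, libraries were stranded, from polyadenylated RNA. Per the submitters' processing notes, Trimmomatic 0.35 and STAR 2.5.2a were used, with the build mm10. Which program counted the reads, with which strand setting and annotation, is not given in the sources used here. Of 54837 gene identifiers, 54808 matched GENCODE M21, which gives the symbols, positions and lengths.

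Groups are the phases and runs in the titles. Genes were filtered with filterByExpr by group, leaving 15192, scaled by TMM and tested with edgeR 4.0.16 in R 4.3.3 (quasi-likelihood, robust, two-sided, Benjamini-Hochberg at 0.05) with the phase alone and, because G0 and G1 are compared within runs, with the run as a replicate block. A standard error is the size of the log2 fold change divided by the root of its F statistic, and intervals use the matching t quantiles. Per-run differences used a prior count of 2. The run numbers pair the libraries: deviations from the group means correlated at 0.437 to 0.668 within a run, and at most 0.0971 between runs. Pairs of libraries within a phase gave chi-square values per degree of freedom of 23.99 to 109.7, far above sampling noise, and were treated as separate libraries.

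The 10 genes and the lists were chosen with earlier results of these data known. Besides the 10, every pathway list gene past the threshold and the 2 with the smallest p per pathway list are named, as are the 2 genes of most like pattern per member, of mean log2 CPM at least 3. Lats1, Lats2 and the genes too low to test were added after their values were seen. Alternatives were DESeq2 1.42.0, limma-voom (limma 3.58.1), RLE size factors, other low-count filters, each library or run left out, exon-union lengths and a prior count of 0.5. The test was tried on simulated counts with known changes.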

Additional observations from a re-analysis of the deposited data

Results flagged for a closer look

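The Yap1 level of 189 CPM in the G1 library of run 3 stood far from the other G1 libraries, at 129 to 135 CPM: its gap to the nearest of them was 0.901 of the range of the group, above Dixon's 95% critical value for 4 samples. In all, 20 groups of 4 libraries were examined in this way, and chance marks about 1 in 20.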

How the results depend on the processing

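The count of 0 of the 10 genes called held in both models under every alternative run: RLE size factors, both other low-count filters, DESeq2, limma-voom, the other model and each library or run left out; with at least 10 counts in all 8 libraries Tead4 was not tested, leaving 9 of them. Over all genes, the model with the phase alone called 0, against 189 with the replicate block, 34 with DESeq2 and 87 with no low-count filter; with each library left out it called 0 to 0. The blocked model called 189, against 310 with no low-count filter, 0 with no replicate block, and 97 to 274 with each run left out, the 97 without run 4. With no filter the median log2 fold change of all genes was -0.82 with the phase alone and -0.61 with the block, and the sign of Wwtr1 turned, to 0.037 and 0.035. With single libraries left out of the model with the phase alone, fold changes crossed 0 for Yap1 (-0.10 to 0.18), Wwtr1 (-0.048 to 0.044), Tead2 (-0.32 to 0.044), Ctgf (-0.14 to 0.54) and Amotl2 (-0.10 to 0.21). With runs left out of the blocked fit they crossed 0 for Yap1 (-0.013 to 0.23) and Wwtr1 (-0.038 to 0.038); the cause was not tested. The block changed no call among the 10 genes. Levels per kilobase of Yap1, Tead1, Tead2, Tead3 and Amotl2 moved by more than their SD with exon-union lengths, with the ranks of the means over all libraries unchanged. Tead4 rests on 9 to 21 reads per library.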

Other observations

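Markers of further cell types were read in the blocked fit. Of 7 hormone-sensing luminal genes, 1, Ly6a, was lower in G1 and passed the test, at -0.94 ± 0.17 (adjusted p = 0.00487). The list median was -0.58, and 2 of the 7, Prlr and Areg, leaned higher in G1, at 0.11 ± 0.58 and 0.23 ± 0.36. Of 6 tested luminal progenitor genes 0 were called, with a median of 0.18. Of the tested pericyte (5), myeloid (4), lymphocyte (1), adipocyte (2) and Schwann cell (4) genes 0 were called, with medians of -0.32, -0.28, -0.84, -0.66 and -0.19. Pericyte genes summed to 17.3 to 30.5 CPM in G1 and 24.8 to 56.6 CPM in G0.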
